A study of Mus musculus with 8 samples.

Results

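Type I interferon-stimulated genes were followed in RNA-seq of red pulp macrophages from mouse spleen, as a set of 36 genes chosen by name. The set holds the interferon Ifnb1, both chains of its receptor, and the IFIT, OAS, MX, RNA sensor, IFI200 and Schlafen genes together with single antiviral genes. All 36 were found among the 55414 gene rows of the count table, and 34 of them were among the 14004 genes with enough reads to be tested. Red pulp macrophages are the macrophages of the spleen that clear old red blood cells. They were sorted 2 h after surgery from wild-type C57BL/6J mice. The CLP group of 4 libraries came from mice after cecal ligation and puncture, a surgical model of sepsis in which gut contents leak into the abdomen. The Sham group of 4 libraries came from mice after sham surgery at the same time. The gate of the sort, the age and the sex of the mice, and whether each library came from 1 mouse or from pooled mice, are not given in the labels. The p-values below therefore measure the spread between these libraries, which may in part be technical.

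Interferon beta is made by cells that sense microbial nucleic acid or lipopolysaccharide. It binds a receptor of the chains IFNAR1 and IFNAR2, whose kinases JAK1 and TYK2 phosphorylate transcription factors such as STAT2. With IRF9, STAT2 is part of a complex that binds the interferon-stimulated response element (ISRE) in the promoters of target genes. The products of those genes block viral entry, translation and replication, or sense viral RNA. In macrophages many of them are also transcribed at a low level without added interferon, and some can be switched on by IRF3 or NF-kB directly.

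Total counts were 17333748 to 21409078 in the CLP libraries and 15392992 to 25665633 in the Sham libraries. Levels are given in CPM, counts brought to a common depth by the library total and the TMM factor, and 1 CPM rested on 15.1 to 27.6 reads. The label of the cells held in both groups: the summed level of 12 red pulp macrophage markers was 41897 to 47343 CPM in CLP and 35106 to 43198 CPM in Sham. Of these 12 markers, 8 were themselves called higher, Spic by 1.87-fold, and Slc40a1 was called lower. Of all 14004 genes tested, 19.8% were called higher and 23.5% lower, so a call on a single marker was common. The markers of other cell types were far lower, and some differed between the groups. The 10 neutrophil markers summed to 12.6 to 30.2 CPM in CLP and 3.49 to 9.50 CPM in Sham, with S100a8, S100a9 and Lcn2 called higher of the 4 tested, while Ly6g had 1 read in CLP 1 and 0 in the other libraries. The 6 platelet markers summed to 18.6 to 22.8 CPM in CLP and 6.95 to 8.11 CPM in Sham, with 3 of the 4 tested higher. The erythroid markers summed to 586 to 1028 CPM in CLP and 267 to 1268 CPM in Sham, with Alas2 and Hbb-bt higher and Epor lower of the 6 tested. The 7 B cell markers summed to 32.2 to 44.9 CPM in CLP and 45.7 to 49.96 CPM in Sham, with Cd79b lower. The 9 T and NK cell markers summed to 103 to 119 CPM in CLP and 95.4 to 97.3 CPM in Sham, most of it from Cd4, which was not called and averaged 86.1 CPM in CLP and 72.9 CPM in Sham. Of those 9, Ncr1 was called, lower. The 7 monocyte markers summed to 28.3 to 61.7 CPM in CLP and 36.01 to 45.4 CPM in Sham. Of the 6 monocyte markers tested, edgeR's quasi-likelihood test called 0, DESeq2 called 0 and 0 had an unadjusted p under 0.05. The 7 markers listed for plasmacytoid dendritic cells, the main interferon producers of the spleen, summed to 306 to 396 CPM in CLP and 379 to 394 CPM in Sham, and their defining marker Siglech stayed at 0.331 to 0.833 CPM in CLP and 0.290 to 0.658 CPM in Sham. The part of these cells in the results below was not tested, and in bulk RNA fewer cells of a type cannot be told apart from less RNA per cell.

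The interferon genes went in both directions 2 h after CLP. Of the 34 tested members, 9 were higher after CLP (26.5%) and 5 were lower (14.7%) at an adjusted p under 0.05, and 20 did not pass. Of all 14004 genes tested, 43.3% were called, 19.8% higher and 23.5% lower, so the members were called about as often as other genes. The median log2 fold change, CLP minus Sham, was 0.27 over the 34 members and -0.05 over all genes tested. The CLP values lay above all Sham values for 6 members and below all of them for 4, against 18.7% and 22.8% of all genes tested (41.5% in both directions). The members that rose were Slfn2, Ifi205, Mx2, Isg20, Slfn5, Rsad2, Bst2, Ifi203 and Ifnar2, and those that fell were Mavs, Ifit3b, Ifit3, Ddx58 and Dhx58. The balance rested on the scaling: scaled by library totals and not by TMM, the median of all genes moved by -0.32 to -0.37, and 5 members were higher and 9 lower. With that scaling, 1286 of all 14004 genes tested were higher and 6435 lower. Slfn2, Ifi205, Mx2, Slfn5, Mavs, Ifit3 and Ifit3b were called in the same direction in all 16 alternative settings run. The other 7 called members lost the call in at least 1 setting, none of them with a change of sign.

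**Figure D1:**
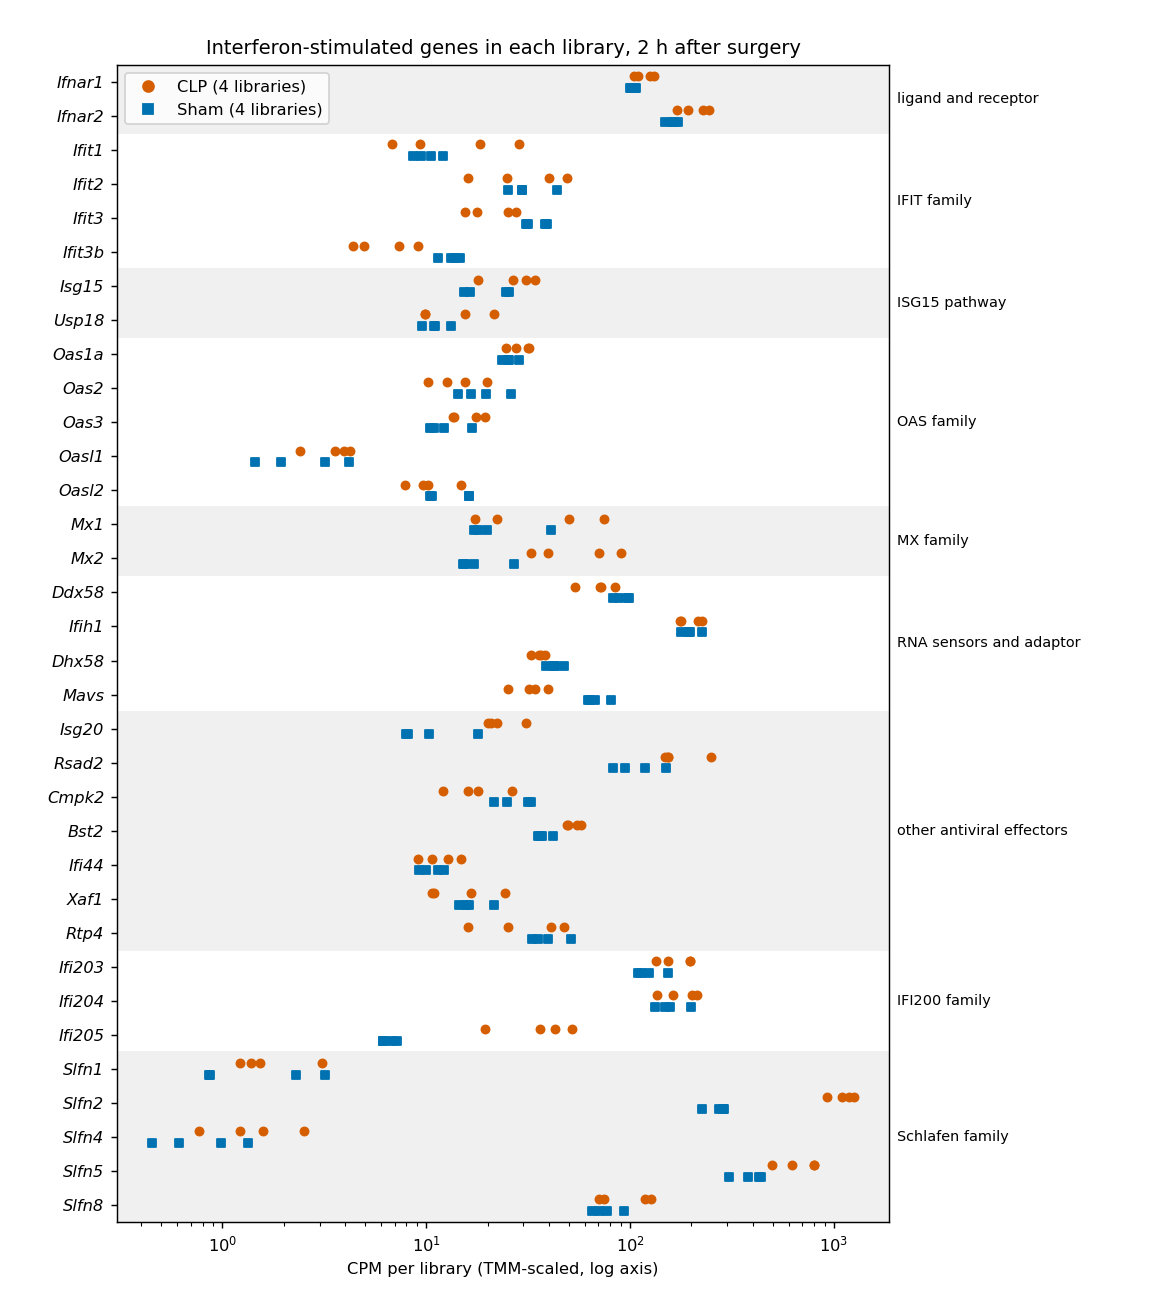
TMM-scaled CPM of each of the 34 tested members in every library (log axis), with CLP libraries above Sham libraries for each gene and genes grouped by family. The points of CLP lie wholly above those of Sham for Slfn2, Slfn5, Ifi205, Mx2, Isg20 and Bst2, and wholly below them for Mavs, Dhx58, Ifit3 and Ifit3b.

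**Figure D2:**
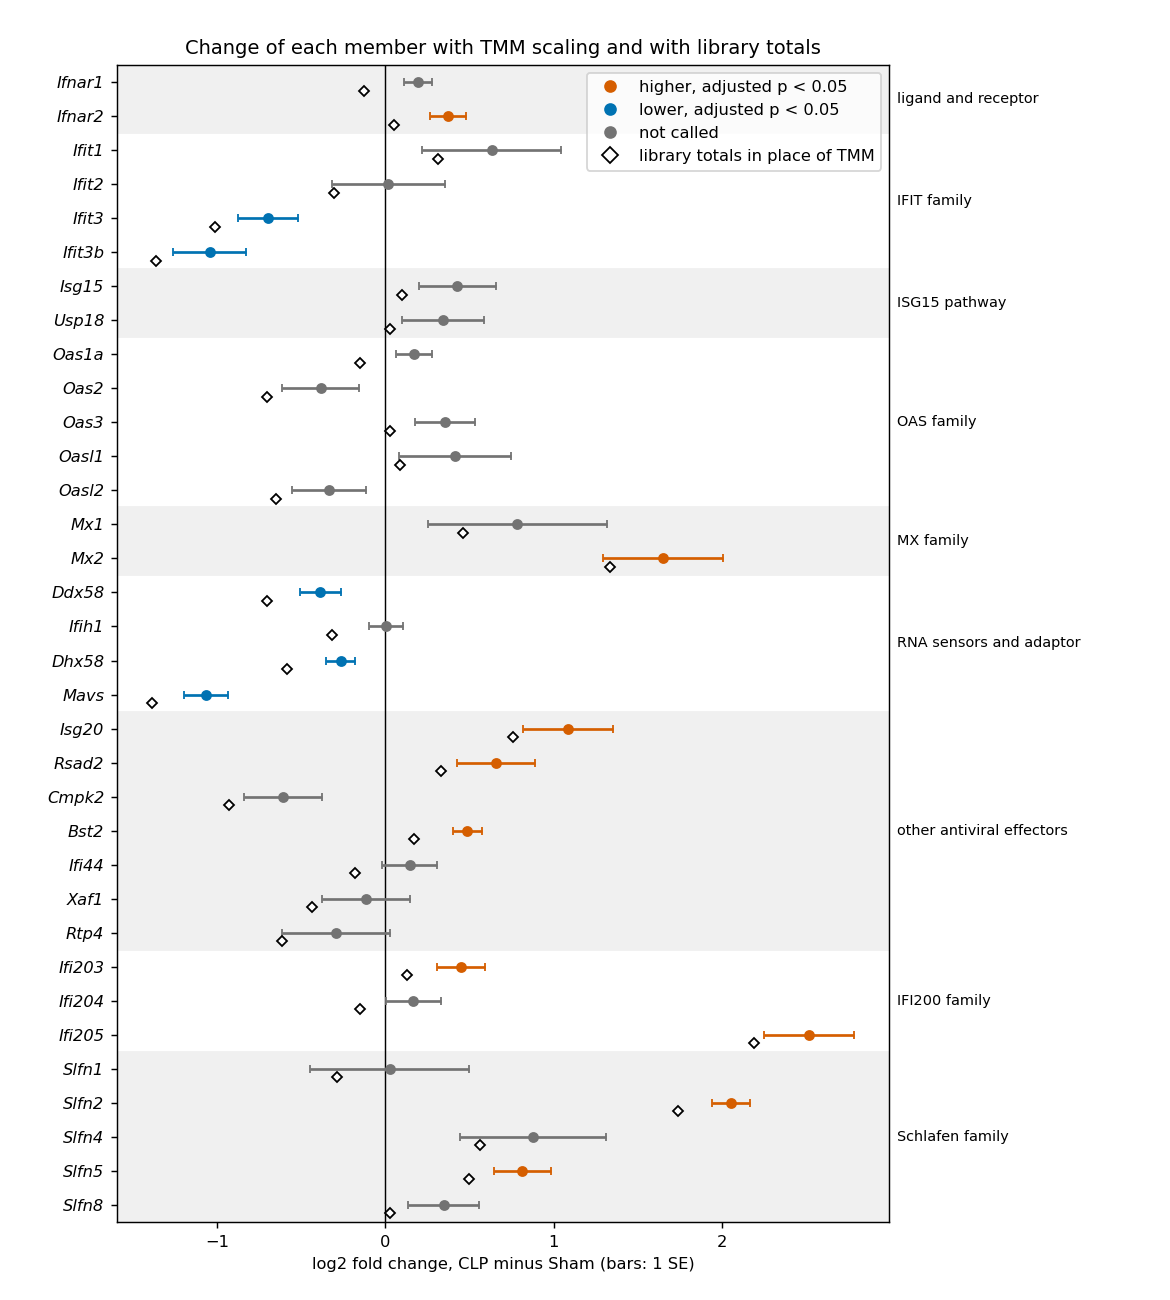
Log2 fold change, CLP minus Sham, of the 34 tested members with bars of 1 SE, coloured by the call of edgeR's quasi-likelihood test. The values run from -1.06 for Mavs to 2.52 for Ifi205, with 9 genes higher, 5 lower and 20 not called.

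Interferon itself was barely detected. Ifnb1, which encodes interferon beta, had 0, 1, 8 and 1 reads in CLP 1 to CLP 4, against 0, 1, 0 and 0 reads in Sham 1 to Sham 4. CLP 3 held 8 of the 10 reads after CLP, and too few reads were present for a test. Scaled for depth, the pooled ratio of 10 reads to 1 read was 13.6 (95% exact interval 1.94 to 592, which covers counting error only), and it rests on CLP 3. The 19 other interferon genes listed, of the alpha, epsilon, kappa, zeta, gamma and lambda kinds, together had 0, 6, 14 and 1 reads in CLP 1 to CLP 4 and 0, 8, 2 and 4 reads in Sham 1 to Sham 4. Of these, 13 had no read in any library.

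The receptor chains were both well expressed and moved little. Ifnar2, the chain that binds interferon most tightly, had 193, 170, 244 and 229 CPM in CLP libraries and 172, 164, 149 and 161 CPM in Sham libraries. The highest Sham value lay just above the lowest CLP value, so the groups overlapped. Ifnar2 was higher after CLP (log2 fold change 0.37, SE 0.11, adjusted p = 0.0161), but not when CLP 4 was left out (adjusted p = 0.0525) or with library totals (adjusted p = 0.679). Part of its sequence, 6.31% of its 100-base windows, is shared with the gene model Gm21970. Ifnar1, the signalling partner chain, had 105 to 132 CPM in CLP and 99.5 to 107 CPM in Sham and did not pass (log2 fold change 0.19, adjusted p = 0.0834), although DESeq2 called it higher.

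The IFIT genes, whose products bind viral RNA and halt its translation, were lower or did not pass. The lower genes were 2 of 4, against 23.5% of all genes tested, and a list of 4 is too short to set against that share. Ifit3 (ENSMUSG00000074896) had 17.7, 15.5, 27.6 and 25.3 CPM in CLP libraries, against 38.2, 30.8, 38.9 and 31.6 CPM in Sham libraries. Its near copy Ifit3b (ENSMUSG00000062488) had 4.93, 4.40, 9.10 and 7.35 CPM in CLP libraries, against 13.2, 11.5, 14.7 and 13.8 CPM in Sham libraries. For both genes every CLP value lay below every Sham value. Ifit3 fell by 0.70 on the log2 scale (SE 0.18, adjusted p = 0.00949) and Ifit3b by 1.04 (SE 0.22, adjusted p = 0.00237). The transcripts of the pair are identical at 97.8% of 1700 aligned positions, and 521 windows of 100 bases occur in both, which is 31.7% of those of Ifit3 and 27.4% of those of Ifit3b. How reads were divided between them is therefore uncertain. Ifit1 had 9.29, 6.80, 28.7 and 18.3 CPM in CLP libraries and 9.48, 10.54, 12.1 and 8.63 CPM in Sham libraries. CLP 3 and CLP 4 lay above all Sham libraries while CLP 1 and CLP 2 lay within or below their range, and the gene did not pass (log2 fold change 0.63, SE 0.41, adjusted p = 0.255). Ifit2 gave the same picture of spread, with 16.1 to 48.8 CPM in CLP and 25.3 to 43.7 CPM in Sham (log2 fold change 0.02, adjusted p = 0.971), and its sign turned under several settings.

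The promoters of the lower pair and of Ifit1 are shown because all of them carry the ISRE core, a pair of GAAA repeats in the same direction with 2 bases of any kind between them, while Ifit3 and Ifit3b were called lower and Ifit1 was not called. The bases are the 250 before the RefSeq start on build GRCm38.p6, read 5′ to 3′ on the gene's strand, with the core in capitals on whichever strand it lies. Ifit3 lies at chr19:34583279-34583528, Ifit3b at chr19:34607707-34607956 and Ifit1 at chr19:34640639-34640888, all on the plus strand.
Ifit3: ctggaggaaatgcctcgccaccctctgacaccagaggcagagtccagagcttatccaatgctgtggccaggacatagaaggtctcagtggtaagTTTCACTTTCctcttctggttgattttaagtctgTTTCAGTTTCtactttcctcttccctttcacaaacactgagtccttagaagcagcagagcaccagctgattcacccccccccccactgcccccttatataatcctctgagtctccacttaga
Ifit3b: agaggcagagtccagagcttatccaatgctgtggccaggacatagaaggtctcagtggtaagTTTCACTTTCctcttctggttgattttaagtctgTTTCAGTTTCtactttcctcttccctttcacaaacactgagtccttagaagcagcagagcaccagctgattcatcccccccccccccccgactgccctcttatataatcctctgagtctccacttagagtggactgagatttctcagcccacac
Ifit1: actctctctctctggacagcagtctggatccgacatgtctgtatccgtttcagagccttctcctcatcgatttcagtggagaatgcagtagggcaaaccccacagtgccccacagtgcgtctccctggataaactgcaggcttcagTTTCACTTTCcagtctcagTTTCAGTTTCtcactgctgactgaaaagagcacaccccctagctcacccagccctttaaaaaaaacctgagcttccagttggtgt
The cores of Ifit3 begin 156 and 122 bases before the start, those of Ifit3b 188 and 154 bases, and those of Ifit1 104 and 85 bases. The annotated promoters of Ifit3 and Ifit3b, with the first bases of the transcript, are identical at 94.5% of 274 aligned positions.

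Isg15 encodes a ubiquitin-like protein that is joined to other proteins, and Usp18 the enzyme that removes it and also restrains the receptor. Isg15 had 26.65, 17.9, 31.0 and 34.2 CPM in CLP libraries and 15.3, 16.4, 25.5 and 24.5 CPM in Sham libraries. CLP 2 lay inside the Sham range and the other CLP libraries above it, and Isg15 did not pass (log2 fold change 0.43, SE 0.23, adjusted p = 0.163). It passed without CLP 2 (adjusted p = 0.0328) and with the replicate number as a block (adjusted p = 0.0244). Usp18 had 9.86 to 21.5 CPM in CLP and 9.51 to 13.3 CPM in Sham (log2 fold change 0.34, adjusted p = 0.284). Of these 2 genes edgeR called 0, DESeq2 called 0 and 0 had an unadjusted p under 0.05.

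The OAS genes encode enzymes that make oligoadenylates on double-stranded RNA and so activate an RNA-cutting enzyme. Oasl1 and Oasl2 encode related proteins. None of the 5 members passed in edgeR's test or in DESeq2, and 0 had an unadjusted p under 0.05. With library totals in place of TMM, edgeR's test called Oas2 lower (log2 fold change -0.70, adjusted p = 0.0236). Oasl2 was called lower there as well (log2 fold change -0.65, adjusted p = 0.0197). With TMM the log2 fold changes of the 5 members ran from -0.39 for Oas2 to 0.41 for Oasl1. Oas2 had 12.7, 10.2, 19.95 and 15.5 CPM in CLP libraries, against 16.6, 19.6, 25.9 and 14.3 CPM in Sham libraries. Oas1a had 24.5 to 32.01 CPM in CLP and 23.6 to 28.6 CPM in Sham, but 40.9% of its 100-base windows also occur in Oas1g. Oas3 had 13.6 to 19.5 CPM in CLP and 10.46 to 16.8 CPM in Sham. Its highest Sham value was that of Sham 4, and without that library Oas3 passed (log2 fold change 0.55, adjusted p = 0.0169).

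Mx2 rose and Mx1 did not pass, although both varied in the same libraries. Genes of this family encode GTPases that trap viral particles, and C57BL/6 mice carry a defective Mx1 gene. Whether the Mx2 transcript of these mice yields a working protein cannot be read from RNA counts. Mx2 (ENSMUSG00000023341) had 39.6, 32.8, 90.7 and 70.2 CPM in CLP libraries, against 15.2, 17.1, 26.9 and 15.4 CPM in Sham libraries. Every CLP value lay above every Sham value, CLP 3 was the highest of its group, and Sham 3 stood above the other Sham libraries. Mx2 was 3.14-fold higher after CLP (log2 fold change 1.65, SE 0.36, adjusted p = 0.00645). Mx1 had 22.4, 17.3, 74.2 and 50.4 CPM in CLP libraries and 17.2, 19.8, 40.9 and 18.0 CPM in Sham libraries. Here CLP 2 lay near the lowest Sham library, Sham 3 exceeded CLP 1 and CLP 2, and the difference did not pass (log2 fold change 0.78, SE 0.53, adjusted p = 0.282).

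The genes that detect viral RNA in the cytosol, with their adaptor, were lower or did not pass. The lower genes were 3 of 4, against 23.5% of all genes tested, again a list too short for that comparison. Mavs (ENSMUSG00000037523), the mitochondrial adaptor through which the sensors signal, had 32.1, 39.4, 25.2 and 34.1 CPM in CLP libraries, against 63.8, 67.1, 62.4 and 80.3 CPM in Sham libraries. The groups lay far apart, with CLP 2, the highest of its group, well below Sham 3, the lowest of its group. Mavs fell by 1.06 on the log2 scale (SE 0.13, adjusted p = 9.89e-05). Ddx58, which encodes the sensor RIG-I, had 53.8, 71.1, 84.0 and 72.2 CPM in CLP libraries and 98.5, 88.7, 98.2 and 82.1 CPM in Sham libraries. Only CLP 3 reached the Sham range. Ddx58 fell by 0.39 (SE 0.12, adjusted p = 0.0247), and the call was lost without CLP 4, Sham 1, Sham 2 or Sham 3 (adjusted p up to 0.0814). Dhx58, which encodes the regulatory sensor LGP2, had 32.6 to 38.1 CPM in CLP and 38.8 to 47.3 CPM in Sham, with no overlap. Dhx58 fell by 0.27 (SE 0.09, adjusted p = 0.0274), and the call was lost in DESeq2 and without CLP 2, CLP 4, Sham 1, Sham 2 or Sham 3 (adjusted p up to 0.148). Ifih1, which encodes the sensor MDA5, had 176 to 226 CPM in CLP and 179 to 225 CPM in Sham, and its log2 fold change was 0.004 (adjusted p = 0.98). With library totals, which moved the median log2 fold change of all genes to -0.37, Ifih1 was called lower (log2 fold change -0.31).

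Among the 7 single antiviral genes tested, 3 rose and 0 were called lower, against 19.8% higher and 23.5% lower of all genes tested. Isg20, a nuclease of single-stranded RNA, had 22.2, 20.2, 30.8 and 20.7 CPM in CLP libraries, against 7.93, 8.11, 10.3 and 17.9 CPM in Sham libraries. All CLP values lay above all Sham values, with Sham 4 closest to them, and Isg20 was 2.12-fold higher (log2 fold change 1.09, SE 0.27, adjusted p = 0.00944). Bst2, which encodes tetherin, a membrane protein that holds budding virus on the cell, had 57.3, 49.2, 54.9 and 49.4 CPM in CLP libraries, against 37.0, 36.2, 41.9 and 35.5 CPM in Sham libraries. The libraries of each group lay close together, the groups did not overlap, and Bst2 rose by 0.49 on the log2 scale (SE 0.09, adjusted p = 0.000907). With library totals it did not pass (adjusted p = 0.124). Rsad2, which encodes viperin, had 153, 149, 248 and 154 CPM in CLP libraries and 82.4, 94.8, 119 and 151 CPM in Sham libraries. CLP 3 stood apart from the other CLP libraries, and Sham 4 reached the lower CLP values. Rsad2 passed narrowly (log2 fold change 0.66, SE 0.23, adjusted p = 0.0484) and lost the call when any library other than Sham 4 was left out (adjusted p up to 0.105).

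Cmpk2, the nucleotide kinase that neighbours Rsad2 on chromosome 12, had 16.1, 12.1, 26.5 and 18.0 CPM in CLP libraries and 25.04, 21.5, 31.5 and 32.8 CPM in Sham libraries, with only CLP 3 inside the Sham range. Cmpk2 did not pass (log2 fold change -0.61, SE 0.23, adjusted p = 0.0573) but was called lower in 6 of the 16 alternative settings, DESeq2 and limma-voom among them, and when CLP 3 or Sham 2 was left out. Ifi44, Xaf1 and Rtp4 did not pass, with log2 fold changes of 0.14, -0.11 and -0.29. Rtp4 ranged from 16.1 to 47.6 CPM in CLP and from 33.1 to 51.3 CPM in Sham. Ifi44l was the only member with no read in any library, which allows up to 0.199 CPM in a CLP library and up to 0.175 CPM in a Sham library (3 counts each).

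Ifi205 had the highest fold change of the set. It belongs to the IFI200 family, nuclear and cytosolic proteins that bind DNA. Ifi205 (ENSMUSG00000054203) had 36.2, 19.5, 42.9 and 51.9 CPM in CLP libraries, against 6.15, 6.14, 6.82 and 7.15 CPM in Sham libraries. The Sham libraries were nearly equal, and even CLP 2, the lowest of its group, lay well above them. Ifi205 was 5.72-fold higher after CLP (log2 fold change 2.52, SE 0.27, adjusted p = 8.43e-05). Its sequence shares 15.0% of its 100-base windows with the relative Ifi211, which was also called higher (log2 fold change 0.89, adjusted p = 0.0228). Ifi203 had 154, 135, 197 and 196 CPM in CLP libraries and 113, 124, 153 and 109 CPM in Sham libraries. Sham 3 lay inside the CLP range, and Ifi203 rose by 0.45 (SE 0.14, adjusted p = 0.0288), a call lost without CLP 3, CLP 4 or Sham 1 (adjusted p up to 0.0803) and with library totals. Ifi204 had 136 to 214 CPM in CLP and 132 to 199 CPM in Sham and did not pass (log2 fold change 0.17, adjusted p = 0.442).

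Slfn2 was the most abundant member per kilobase of exon and had the smallest adjusted p of the set. Schlafen genes are known in mice for restraining the growth and activation of immune cells, and Slfn2 is needed for quiescence of T cells and monocytes. Slfn2 (ENSMUSG00000072620) had 1180, 928, 1095 and 1256 CPM in CLP libraries, against 284, 272, 290 and 226 CPM in Sham libraries. No CLP library came near the Sham libraries, and Slfn2 was 4.16-fold higher (log2 fold change 2.06, SE 0.11, adjusted p = 7.26e-07). Per kilobase of exon its mean level was 670 CPM in CLP and 161 CPM in Sham. The next member per kilobase was Slfn5, at 108 CPM in CLP and 61.3 CPM in Sham. Slfn5 (ENSMUSG00000054404) had 624.5, 495, 803 and 801 CPM in CLP libraries, against 429, 380.5, 436 and 304.5 CPM in Sham libraries. The groups did not overlap, and Slfn5 rose by 0.81 on the log2 scale (SE 0.17, adjusted p = 0.00353). Of its 6296 windows of 100 bases, 388 also occur, with both strands searched, in the transcripts of Slfn5os, by its name an opposite-strand gene. The strand setting of the counting is not given, so whether reads of the pair were separated is uncertain.

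The other Schlafen members did not pass. Slfn8 had 74.2, 70.0, 127 and 118 CPM in CLP libraries and 70.2, 77.0, 93.3 and 65.2 CPM in Sham libraries, so that CLP 3 and CLP 4 alone exceeded the Sham range (log2 fold change 0.35, adjusted p = 0.219). Slfn1 and Slfn4 were at or below 3.204 CPM in every library, with 19 to 56 reads for Slfn1 and 11 to 46 reads for Slfn4. Their log2 fold changes were 0.03 and 0.88 with adjusted p of 0.97 and 0.126. In the order of the RefSeq annotation, the called genes of the Schlafen cluster on chromosome 11 alternated with others: Slfn5 rose, Slfn9, the next Schlafen gene, fell, Slfn8 did not pass, and Slfn10-ps and Slfn2 rose. Slfn10-ps, an annotated pseudogene beside Slfn2, had 11.7, 8.79, 12.8 and 10.52 CPM in CLP libraries, against 1.88, 2.10, 2.21 and 0.987 CPM in Sham libraries. It was 6.12-fold higher after CLP (log2 fold change 2.61, SE 0.24, adjusted p = 1.4e-05).

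**Figure D3:**
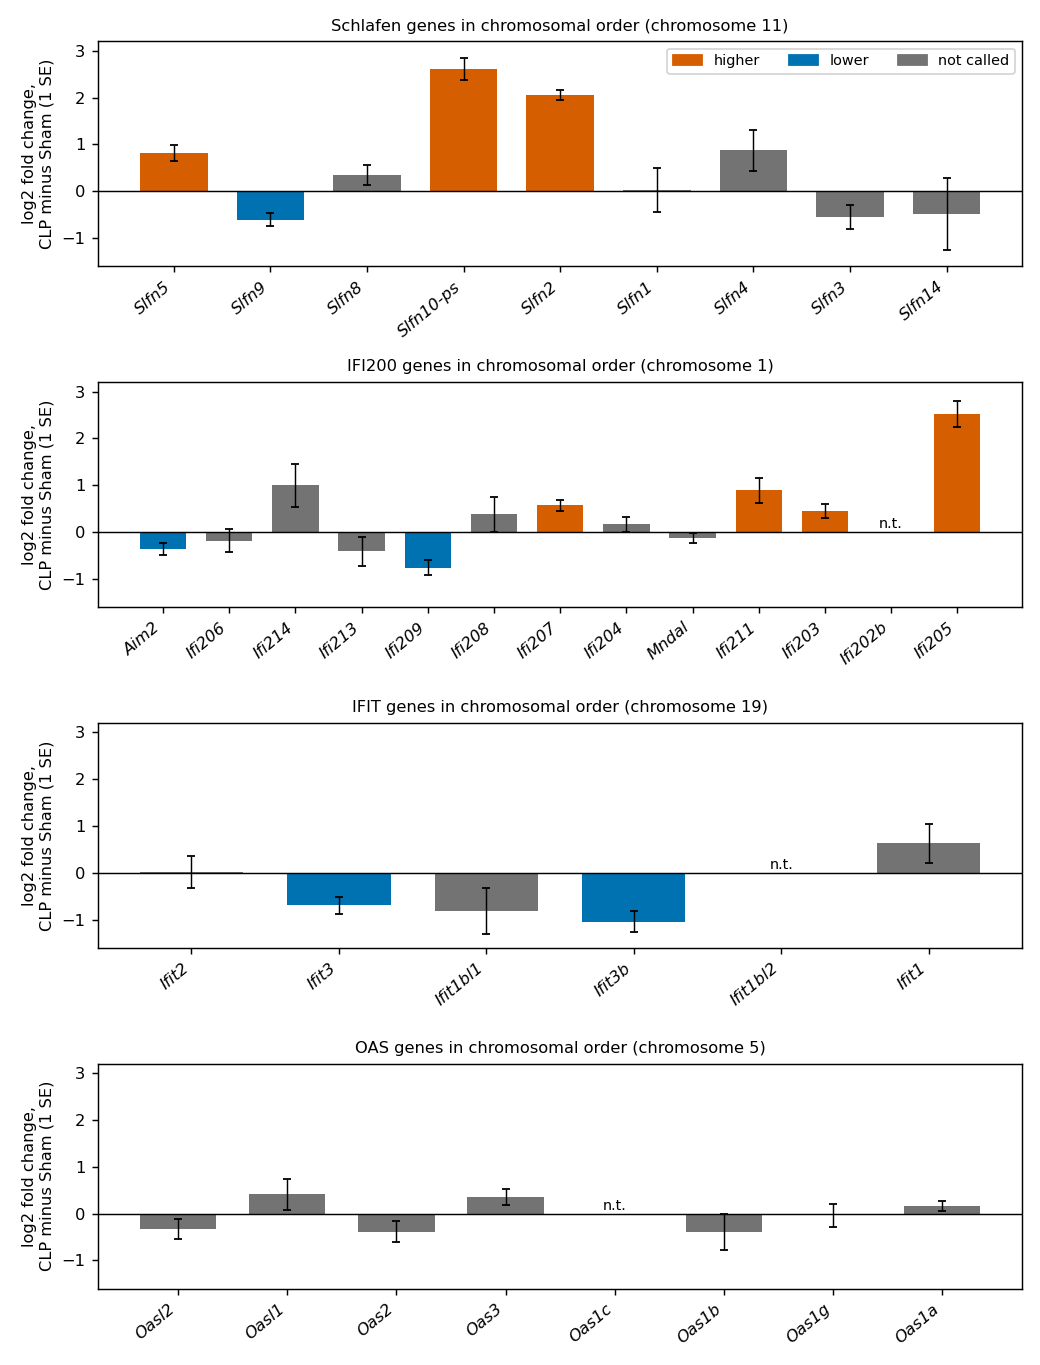
Log2 fold change, CLP minus Sham, with bars of 1 SE, for members and relatives in their order on chromosomes 11, 1, 19 and 5, at equal spacing (n.t., not tested). Called genes of opposite sign lie side by side, as for Slfn5 at 0.81 and Slfn9 at -0.60.

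The promoters of the members with the clearest changes outside the IFIT cluster are shown because they differ in the ISRE core. Ifi205 lies at chr1:174031756-174032005 on the minus strand, Bst2 at chr8:71537473-71537722 on the minus strand, Slfn2 at chr11:83064862-83065111 on the plus strand and Mavs at chr2:131233813-131234062 on the plus strand, all on GRCm38.p6 from RefSeq, with the core in capitals.
Ifi205: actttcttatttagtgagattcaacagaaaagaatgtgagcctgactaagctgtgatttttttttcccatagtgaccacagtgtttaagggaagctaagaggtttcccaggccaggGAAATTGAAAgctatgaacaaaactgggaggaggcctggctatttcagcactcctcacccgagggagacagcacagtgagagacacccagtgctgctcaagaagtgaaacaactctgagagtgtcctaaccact
Bst2: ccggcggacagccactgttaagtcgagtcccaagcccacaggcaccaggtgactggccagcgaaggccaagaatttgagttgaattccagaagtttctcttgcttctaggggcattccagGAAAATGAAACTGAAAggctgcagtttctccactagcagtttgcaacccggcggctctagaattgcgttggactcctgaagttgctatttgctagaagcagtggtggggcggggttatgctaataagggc
Slfn2: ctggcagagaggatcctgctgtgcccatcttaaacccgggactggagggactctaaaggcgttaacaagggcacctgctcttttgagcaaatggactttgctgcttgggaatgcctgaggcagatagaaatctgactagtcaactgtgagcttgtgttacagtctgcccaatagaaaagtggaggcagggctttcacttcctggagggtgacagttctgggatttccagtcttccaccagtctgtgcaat
Mavs: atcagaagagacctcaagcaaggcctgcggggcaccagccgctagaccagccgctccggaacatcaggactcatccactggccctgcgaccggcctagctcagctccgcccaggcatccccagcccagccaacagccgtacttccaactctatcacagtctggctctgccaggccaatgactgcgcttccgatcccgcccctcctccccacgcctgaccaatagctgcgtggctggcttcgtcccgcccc
The core of Ifi205 begins 134 bases before the start. Bst2 has a pair of overlapping cores that begin 130 and 124 bases before it. The windows of Slfn2 and Mavs hold no match to these letters.

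Across the set, RefSeq promoters were matched for 29 of the 36 members, not for Dhx58, Ifi204, Mx1, Mx2, Oas2, Rtp4 and Usp18. The core, GAAA followed by 2 bases of any kind and GAAA, was searched on both strands with overlaps allowed. It was in the 250 bases before a start for 12 of the 29 members, against 2.98% of 32851 RefSeq promoters. A member counted if any of its promoters matched (34 promoters for the 29 members), while the 2.98% counts single promoters. The members were chosen by name as interferon-stimulated, so an excess over all promoters does not bear on CLP. The core was in 5 of the 8 matched members that were higher, in 2 of the 4 that were lower and in 5 of the 15 that did not pass. Isg15 had 3 cores that begin 78, 72 and 66 bases before its start. A motif of the NF-kB type, GGG followed by 2 bases of any kind and TTTCC, searched likewise, was in the window of 0 of the 29 members and of 1.41% of all promoters. The window of Ifnb1 holds gggaaattcc, a close variant that these fixed letters do not match. The 0 therefore counts these letters only and does not show that NF-kB sites are absent. A match is a description of these letters and does not show a bound site.

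The highs and lows of the members fell in the same libraries of a group more often than those of all genes. CLP 3 had the highest CLP value for 25 of the 34 tested members (73.5%, against 35.7% of all genes tested), and CLP 2 had the lowest for 26 (76.5%, against 26.1%). Among Sham libraries, Sham 3 was highest for 26 members (76.5%, against 24.3% of all genes) and Sham 4 lowest for 16 (47.1%, against 26.7%). Relative to the group mean, the median member lay at -0.16, -0.41, 0.26 and 0.15 on the log2 scale in CLP 1 to CLP 4 and at -0.10, -0.06, 0.19 and -0.14 in Sham 1 to Sham 4. Among members at a mean of 5 CPM or more, the highest library exceeded the lowest by a median of 1.67-fold in CLP and 1.40-fold in Sham, against 1.30-fold and 1.21-fold among all genes at that level. These shares describe 8 libraries and carry no test, since the members are not independent of each other.

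In further genes known as interferon-stimulated but outside the set, CLP 3 was highest of CLP for 15 of 31. Sham 3 was highest of Sham for 24 of 31. The shares of all genes tested were 35.7% and 24.3%. In the other lists described below, these counts were 6 of 9 and 3 of 9 for signalling genes and 5 of 17 and 12 of 17 for induction genes. For relatives of the member families they were 10 of 16 and 11 of 16. Markers of other cells also differed between these libraries. Neutrophil markers summed to 12.6, 17.3, 29.7 and 30.2 CPM in CLP 1 to CLP 4 and to 3.84, 6.38, 9.50 and 3.49 CPM in Sham 1 to Sham 4. Monocyte markers summed to 28.3, 36.2, 61.7 and 36.3 CPM in CLP 1 to CLP 4 and to 36.01, 42.5, 45.4 and 37.3 CPM in Sham 1 to Sham 4. By summed level, Sham 3 was the highest Sham library in both of these lists, but in none of the other 6 marker lists. Of the T and NK cell markers, Cd3e, Cd3d, Nkg7 and Gzma were highest in Sham 3. Cd4, Cd3g, Cd8a, Klrb1c and Ncr1 were highest in other Sham libraries. By summed level, CLP 3 was the highest CLP library for monocyte and erythroid markers. It was next to the highest for neutrophil and for T and NK cell markers. It was the lowest for B cell, plasmacytoid dendritic cell and red pulp macrophage markers. Cd4 made up most of the T and NK cell sum, and Lair1 and Tcf4 most of the plasmacytoid dendritic cell sum. All of these were lowest in CLP 3 among CLP libraries. Cd3e, Cd3d, Cd3g, Cd8a, Nkg7, Gzma and Klrb1c were instead highest in CLP 3, and Ncr1 in CLP 1. Ccr9 and Pacsin1 were highest in CLP 3 and Sham 3 of their groups, and Siglech, Cox6a2 and Klk1 in neither. The part of those cells was not tested.

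**Figure D4:**
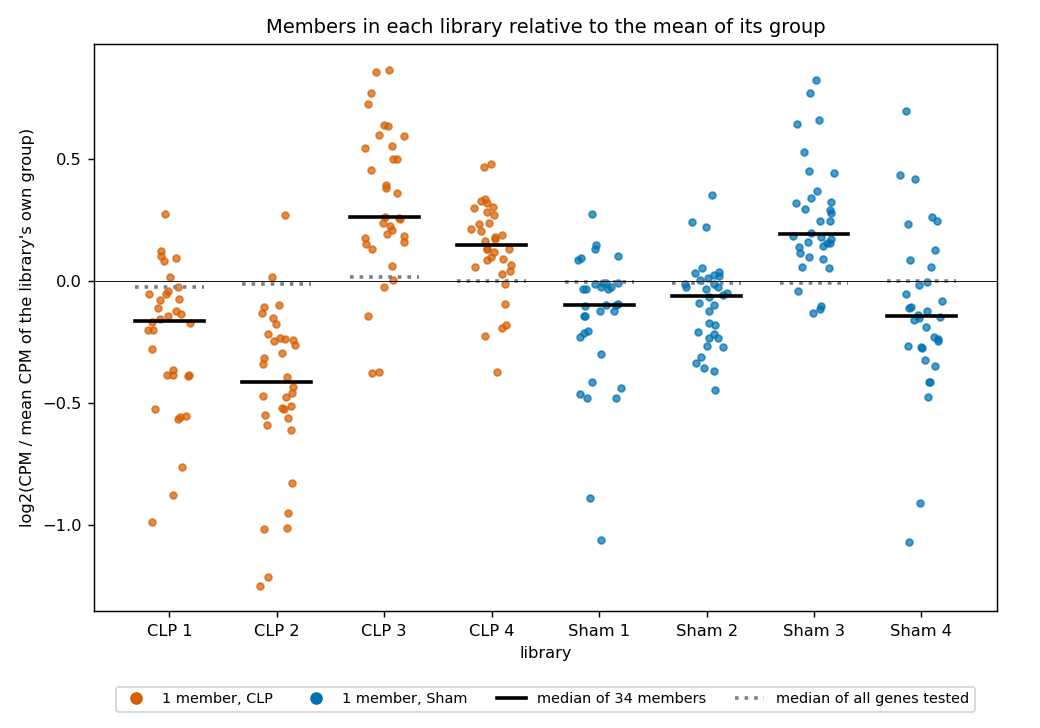
Log2 of each tested member's CPM over the mean of its group, by library, with 1 dot per gene, a bar at the median of the 34 members and a bar at the median of all genes tested. The members' medians are 0.26 in CLP 3, -0.41 in CLP 2 and 0.19 in Sham 3, while those of all genes lie near 0.

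The genes that carry the interferon signal moved in both directions. Of 9 signalling genes tested, 4 were higher (Jak1, Socs1, Ptpn11 and Kpna1) and 3 lower (Tyk2, Irf9 and Ptpn6), with a median log2 fold change of 0.24. These are 44.4% and 33.3% of the list, against 19.8% and 23.5% of all genes tested. Socs1, the feedback inhibitor of the receptor kinases, had 31.4, 25.6, 53.6 and 50.2 CPM in CLP libraries, against 7.997, 7.70, 8.86 and 5.06 CPM in Sham libraries. Every CLP value lay well above the Sham values, and Socs1 was 5.44-fold higher (log2 fold change 2.44, adjusted p = 0.000128). Irf9, a DNA-binding partner of STAT2, had 64.4 to 97.8 CPM in CLP and 95.6 to 99.8 CPM in Sham and fell by 0.36 (adjusted p = 0.0344). Stat2 had 64.2, 62.6, 144 and 122 CPM in CLP libraries and 142, 128, 158 and 120 CPM in Sham libraries. CLP 1 and CLP 2 lay far below all Sham libraries while CLP 3 and CLP 4 lay among them, and Stat2 did not pass (log2 fold change -0.49, adjusted p = 0.198). Ptpn6, a phosphatase that dampens kinase signals and the most abundant of the list per kilobase, fell by 0.33 (adjusted p = 0.0106).

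Of 17 genes that lead to interferon induction, 7 were higher (Irf5, Tbk1, Ikbke, Traf3, Tank, Ticam1 and Tlr7) and 4 lower (Irf3, Tlr3, Tlr9 and Tmem173), with a median of 0.21. These are 41.2% and 23.5% of the list, against 19.8% and 23.5% of all genes tested. Ikbke, a kinase of IRF3 and IRF7, had 53.1, 50.6, 197 and 94.8 CPM in CLP libraries, against 15.7, 18.8, 35.5 and 13.6 CPM in Sham libraries. CLP 3 and Sham 3 were again the highest of their groups, and Ikbke was 4.77-fold higher (log2 fold change 2.25, SE 0.55, adjusted p = 0.014). Tlr3, the endosomal receptor for double-stranded RNA, fell by 0.57 (adjusted p = 0.00114). Irf3, the factor that starts Ifnb1 transcription, fell by 0.39 (adjusted p = 0.0134). Irf7, its interferon-inducible relative, had 71.7 to 127 CPM in CLP and 91.2 to 130 CPM in Sham and did not pass (log2 fold change -0.17, adjusted p = 0.487). Unc93b1, which carries endosomal receptors to their place, did not pass (log2 fold change 0.21, adjusted p = 0.0621).

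Of 31 further interferon-stimulated genes tested, 5 were higher (Parp14, Ifitm3, Lgals3bp, Helz2 and Sp110) and 7 lower (Parp10, Parp12, Trim21, Ddx60, Trafd1, Tor3a and Znfx1), with a median of -0.14. These are 16.1% and 22.6% of the list, against 19.8% and 23.5% of all genes tested. Helz2, a helicase and nuclear receptor coactivator, had 138, 130, 181 and 177 CPM in CLP libraries, against 52.6, 54.5, 77.1 and 59.5 CPM in Sham libraries, and was 2.57-fold higher (log2 fold change 1.36, adjusted p = 5.94e-05). Trim21, the cytosolic antibody receptor, had 6.53, 4.86, 11.2 and 12.2 CPM in CLP libraries, against 20.7, 21.4, 24.4 and 23.3 CPM in Sham libraries. The groups did not overlap, and Trim21 fell by 1.37 (SE 0.26, adjusted p = 0.00184). Lgals3bp, a secreted glycoprotein and the most abundant of this list per kilobase, rose by 0.33 (adjusted p = 0.0107).

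Of 16 tested relatives of the member families, 3 were higher (Ifi207, Ifi211 and Slfn10-ps) and 3 lower (Ifi209, Aim2 and Slfn9), with a median of -0.27. That is 18.8% in each direction, against 19.8% higher and 23.5% lower of all genes tested. Ifi207, the most abundant of them per kilobase, rose by 0.57 (adjusted p = 0.00249) and Ifi209 fell by 0.76 (adjusted p = 0.00382). Both lie in the IFI200 cluster on chromosome 1 with Ifi203 and Ifi205. Irf7 is counted in more than 1 list.

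**Figure D5:**
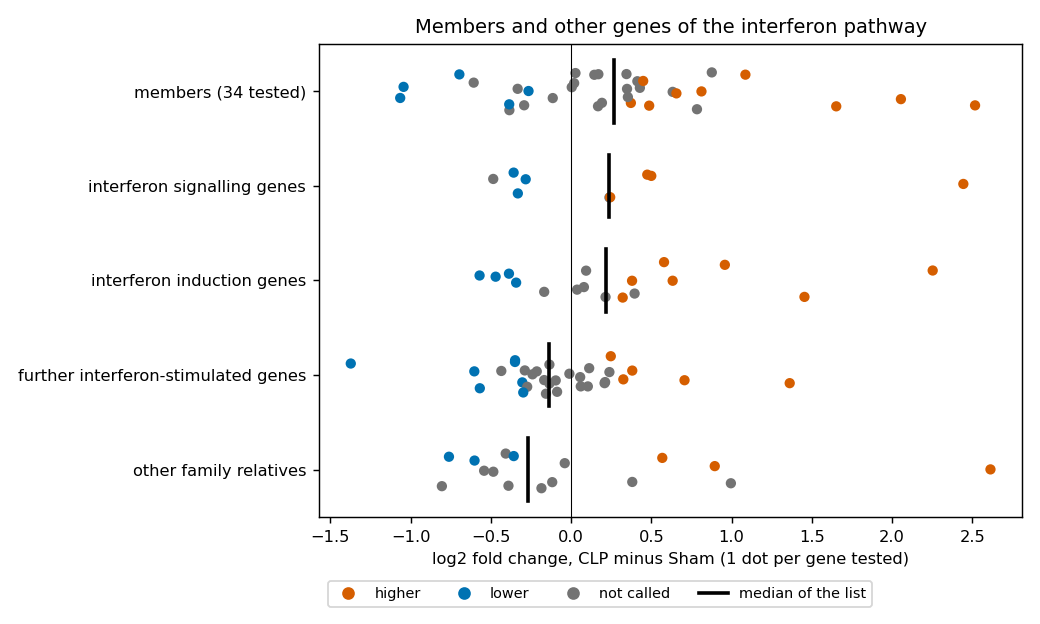
Log2 fold change, CLP minus Sham, of the 34 tested members and of the genes of 4 further lists, 1 dot per gene, coloured by call, with a bar at each list's median. Medians run from -0.27 for relatives of the member families to 0.27 for the members, and each list has genes called in both directions.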

How the data were processed

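The authors deposited raw counts per Ensembl gene for all 8 libraries. Per the submitters' processing notes, the tools were FastQC, STAR 2.7.10b, featureCounts and DESeq2 and the build was mm39. Their roles are not stated there. Libraries were made with a stranded kit, per the labels' protocols. Which annotation was counted, and with which strand setting, is not given in the sources used here. Symbols and exon lengths came from GENCODE mouse release 21, an older build used for no coordinates. Promoters came from the RefSeq table of GRCm38.p6.

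Titles of the samples gave the groups and replicate numbers. The test was edgeR 4.0.16 under R 4.3.3 (filterByExpr, TMM, robust quasi-likelihood F-test, 2 groups, no covariates), checked on simulated data. Benjamini-Hochberg adjustment ran over the 14004 genes tested, and adjusted p under 0.05 was called. SE is |log2 fold change| over the root of F. CPM uses TMM-scaled totals. Replicates were not repeats of 1 library, since their chi-square per degree of freedom was at least 9.25. Ranges and intervals from reads cover counting error only.

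The members and lists were chosen with earlier results of these data known. All members are accounted for, and of each further list the highest and lowest called gene and the most abundant gene per kilobase are named, with Stat2, Irf9, Irf3 and Irf7 always. Not every listed gene is reported here. Ifi211 and Slfn9 were named after their values were seen. Alternatives were DESeq2 1.42.0, limma-voom (limma 3.58.1), DESeq2 size factors, library totals, 2 other filters on low counts, a replicate block, leaving out single libraries and, added after the data were seen, 1 surrogate variable (sva 3.50.0).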

Additional observations from a re-analysis of the deposited data

Results flagged for a closer look

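In 3 of 100 groups of 4 libraries examined, 1 library lay far from the others by Dixon's test of the gap over the range, where chance gives about 1 in 20 groups. Rsad2 had 248.4 CPM in CLP 3, with a gap of 0.95 of the group's range. Mx1 had 40.9 CPM in Sham 3 (gap 0.888 of the range) and Mx2 had 26.86 CPM in the same library (gap 0.832). Sham 3 was the highest Sham library for 26 of the 34 tested members.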

How the results depend on the processing

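No called member changed sign in any of the 16 alternatives, and 7 of the 14 called members kept their call in all. With library totals 5 members were higher and 9 lower, against 1286 higher and 6435 lower of all 14004 genes tested. Leaving out 1 library at a time gave 6 to 10 higher and 3 to 6 lower. The count of 3 lower came without CLP 4, without Sham 1 and without Sham 3, and the 6 higher without CLP 4. The cause was not tested. With no filter on low counts 6 were higher and 5 lower. Members not called turned sign as follows: with library totals Ifnar1 -0.13, Ifit2 -0.30, Oas1a -0.15, Ifih1 -0.31, Ifi44 -0.18, Ifi204 -0.15 and Slfn1 -0.29; with limma-voom Ifit2 -0.0715; with no filter Ifit2 -0.0066 and Ifih1 -0.0215; with 1 surrogate variable Ifit2 -0.0678, Ifih1 -0.0254 and Slfn1 -0.055. With 1 library left out Ifit2 ranged from -0.25 to 0.25, Ifih1 from -0.0598 to 0.098, Slfn1 from -0.36 to 0.46 and Xaf1 from -0.41 to 0.0433. Correlations of deviations from the group means were 0.0743, -0.0377, 0.261 and -0.192 between libraries of the same number. Between libraries of different number they ran from -0.208 to 0.191, so CLP 3 with Sham 3 was the highest. These values do not settle whether the replicate numbers pair the samples. With the replicate block 10 members were higher and 6 lower, Ifit2 was -0.071 and Ifih1 -0.000502. Genes under about 5 CPM, such as Slfn1, Slfn4 and Oasl1, rest on few reads, and members split with near copies stay uncertain at any depth.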
